A study of Mus musculus with 10 samples.

Results

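The libraries described here are the 5 control libraries among the 10 of the series, chosen by the word control in their column names. They hold RNA from activated muscle satellite cells (MuSCs), the stem cells of skeletal muscle, taken from adult control mice of the genotype Trpm7+/+; Pax7CreERT2/+; Rosa26YFP on a C57BL6 background. The mice received tamoxifen, so that Cre under the Pax7 promoter switched on YFP in Pax7-expressing cells and in whatever those cells later became, and the hindlimb muscle was injured with cardiotoxin (CTX) 3 days before 3000 YFP-positive cells were sorted per library. The control mice carry the same Cre driver and reporter as the other arm of the study and differ from it at Trpm7, and no comparison with that arm is made here. The labels do not say whether each library came from a separate animal, so the spread given below is the spread between libraries, which may be in part technical.

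A satellite cell at rest lies under the basal lamina of a fiber, expresses Pax7 and is kept out of the cell cycle by Notch signalling. After injury it enters the cycle and turns on Myod1, and its progeny either divide, return to rest, or switch on Myog and cyclin-dependent kinase inhibitors such as Cdkn1a and go on to fuse into fibers. A bulk profile of sorted cells at this stage averages over these states, so a lower level can mean fewer cells of a state or less RNA per cell, and the counts cannot tell these apart. The values are numbers of molecules counted at transcript 3′ ends, so levels of different genes were compared in CPM, the counts of a gene scaled to a total of 1e6 per library, with no correction for length.

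The 5 libraries held 914361 to 1097709 counts, or 305 to 366 counts per sorted cell. Between 14442 and 14729 genes had at least 1 count in a library, and 7969 genes reached a mean of 10 CPM, 6927 of them in every library. Pairs of libraries correlated with Pearson's r from 0.948 to 0.970 over the 7969 genes on the log2 scale, a description across genes. No pair agreed within sampling noise, since the chi-square per degree of freedom ran from 1.47 to 6.09. The libraries did not lie at equal distances. Over the 3445 genes of at least 50 CPM, the SD of the log2 difference was 0.27 between replicates 2 and 5 and 0.23 to 0.30 among replicates 1, 3 and 4, against 0.34 to 0.40 for each pair of a library of the first set with a library of the second. The overall spread and the number of variable genes are therefore given below with and without replicates 2 and 5, and the values by class and by gene over all 5 libraries only. Xist had 1 count in 1 of the 5 libraries, and Ddx3y, a Y-linked RNA helicase gene, lay between 88.4 and 133 CPM in all 5.

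A small set of genes held a large share of each library. The 100 most abundant genes held 33.1% ± 1.67 (SD, n = 5) of the counts, with 34.2%, 30.3%, 32.9%, 33.7% and 34.5% in replicates 1 to 5, and between 372 and 478 genes were needed to reach the first 50% of a library. By mean level, 94 genes lay at 1000 CPM or more and held 32.5% of the counts, 1694 genes between 100 and 1000 CPM held 42.1%, and 6181 genes between 10 and 100 CPM held 23.2%. Below that, 5169 genes at 1 to 10 CPM held 2.06% and 5689 genes under 1 CPM held 0.223%. Nuclear protein-coding genes held 80.5% ± 1.79 of the counts, the mitochondrial ribosomal RNAs 9.39% ± 1.52, mitochondrially encoded protein genes 5.89% ± 1.59, and long noncoding RNAs 1.11% ± 0.0909.

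**Figure D1:**
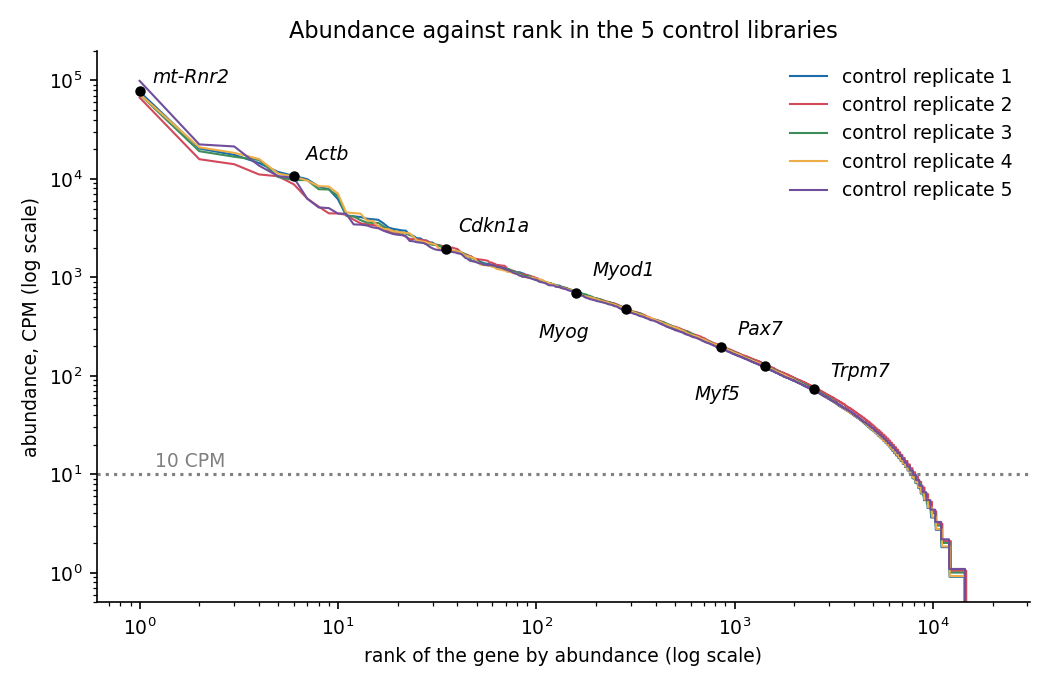
Abundance (CPM, log scale) against rank (log scale) for each of the 5 control libraries, with the mean level and rank of 8 named genes as black points and 10 CPM as a dotted line. The curves lie close together over most ranks. Cdkn1a sits at rank 35, Myod1 at 158, Myog at 283, Pax7 at 855 and Myf5 at 1424.

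All 5 marker genes were well above the detection limit in every library. Pax7 (chr4:139737062-139833528, GRCm38, minus strand), the paired-box factor that defines satellite cells, was at 152, 199, 195, 186 and 245 CPM in replicates 1 to 5 (mean 196 ± 33.3, SD, n = 5, from 167 to 224 counts). Myf5 (chr10:107482908-107486134, minus strand), the myogenic factor of the committed progenitor, was lower at 101, 111, 132, 152 and 130 CPM (mean 125 ± 19.8). Both were lowest in replicate 1, and Pax7 exceeded Myf5 in each of the 5 libraries, by 1.23 to 1.88 times.

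Myod1 (chr7:46376474-46379099, plus strand), the factor switched on with activation, was at 700, 560, 775, 749 and 724 CPM (mean 701 ± 83.9), lowest in replicate 2. Myog (chr1:134289989-134292548, plus strand), the factor of terminal differentiation, was at 431, 482, 480, 504 and 501 CPM (mean 480 ± 29.3), and its counts did not pass the test for spread beyond counting error described below. The order Myod1, Myog, Pax7, Myf5 held in each of the 5 libraries and the ranges of neighbours in it did not overlap, although those of Pax7 and Myf5 all but met. Myod1 stood at 3.59 times Pax7 and 1.46 times Myog by mean level. With 5 libraries an exact paired permutation test cannot go below p = 0.0625 for any such order, so it is given as a description. Myf6, the fourth member of the family and a gene of mature fibers, had a mean of 1.4 CPM, from 0 to 3 counts per library.

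Cdkn1a (chr17:29090976-29100727, plus strand), which encodes the kinase inhibitor p21, was the most abundant of the markers and of all 22 listed inhibitors and p53 targets. It was at 1788, 2033, 1867, 2153 and 1882 CPM (mean 1945 ± 146), rank 31 to 41 in the single libraries, 2.77 times Myod1 by mean level. In every library its count exceeded that of Tuba1b, a ubiquitous tubulin (914 to 1375 CPM), and of Gapdh (721 to 1174 CPM), whose transcript ends share 86.8% and 94.9% of their bases with other annotated genes.

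**Figure D2:**
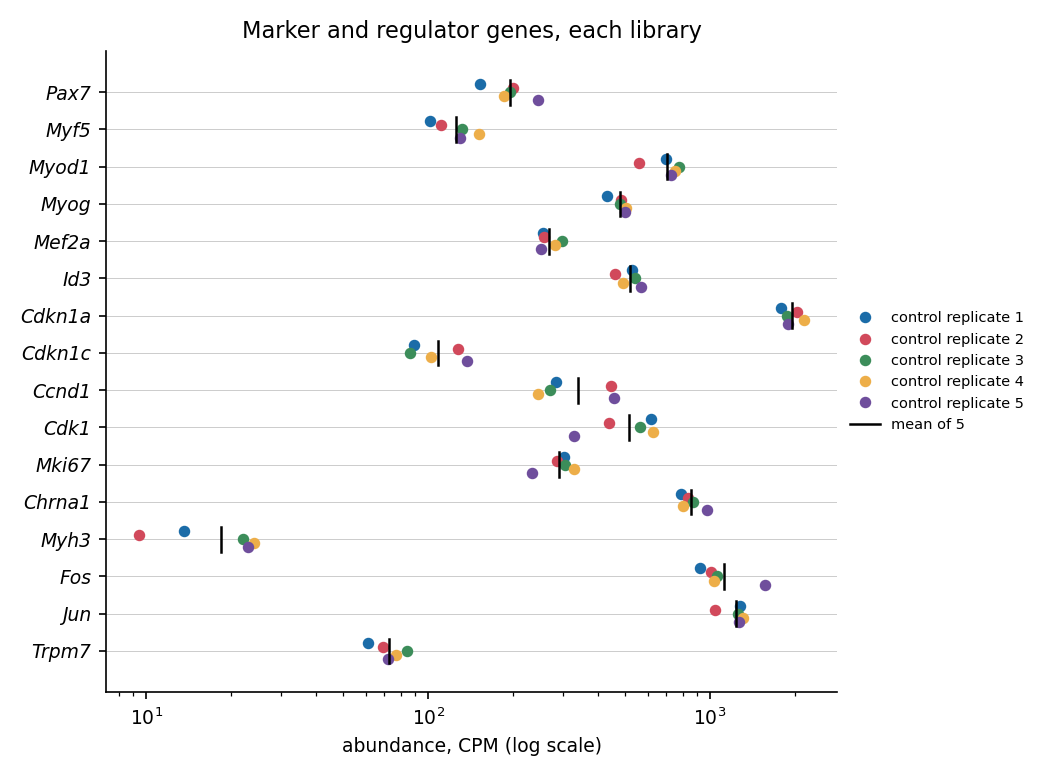
CPM (log scale) of 16 marker and regulator genes in each control library (coloured points) with the mean of 5 (black bar). Cdkn1a lies between 1788 and 2153 CPM, above every other gene drawn, and Myh3 (9.44 to 24.1 CPM) lies lowest.

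Genes of the partners of the myogenic factors were expressed beside them. Of 22 listed myogenic factors and cofactors, 18 reached 10 CPM and 12 reached 100 CPM. The E proteins, which form dimers with Myod1 and Myog, were led by Tcf12 (457 ± 107 CPM) and Tcf4 (444 CPM, 382 to 514), ahead of Tcf3 (123 CPM, 108 to 132). The ID proteins, which bind E proteins and keep them from DNA, were at a similar level, with Id3 at 518 ± 43.5, Id2 at 464 ± 23.1 and Id1 at 317 ± 51.2 CPM. The ranges of Id3 and Id2 overlapped, although Id3 was the higher in all 5 libraries. The 4 ID genes summed to 1310 ± 65.2 CPM, the 3 E protein genes to 1024 ± 84.7 and the 4 myogenic regulatory factors to 1308 ± 109, with the E proteins lower than the regulatory factors in all 5 libraries. Among the MEF2 factors, which act with Myog in differentiation, Mef2a (269 ± 20.5 CPM) exceeded Mef2d (86.8 CPM, 76.6 to 103) and Mef2c (12.4 CPM, 7.34 to 16.7), and Mef2b had no count.

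Satellite cell identity genes were expressed as a set. Of 23 listed genes, 20 reached 10 CPM and 15 reached 100 CPM, with a median of 151 CPM against 41.1 CPM over the 7969 genes of at least 10 CPM. The most abundant was Dag1, the dystroglycan gene, at 824, 1084, 1023, 1002 and 1015 CPM. Then came the integrin subunit Itgb1 (528 ± 119), the intermediate filament gene Des (448 CPM, 380 to 541) and the adhesion receptor Vcam1 (419 ± 42.2). The integrin partner Itga7 (355 CPM, 328 to 401), Ncam1 (326 CPM, 300 to 354), the syndecan Sdc4 (370 CPM, 323 to 433) and M-cadherin, encoded by Cdh15 (211 CPM, 197 to 240), each reached 100 CPM in all 5 libraries. Receptors for the growth factors that drive activation lay in a narrow band, with Met at 177 ± 18.5, Fgfr1 at 154 ± 24.2, Fgfr4 at 113 (92 to 132) and Igf1r at 113 CPM (88.4 to 148). Their ranges overlapped for Met and Fgfr1 and for Fgfr4 and Igf1r, and neither pair kept its order in all 5 libraries. Meox2 had no count and Pax3, the paralogue of Pax7, a mean of 4.19 CPM.

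Genes known from resting satellite cells were mixed. The receptors that mark rest were low: Calcr, the calcitonin receptor, had 3 to 6 counts per library (mean 3.97 CPM), Tek 3.62 CPM, and Cd34 28 ± 12.1 CPM. In contrast, Notch receptors and their targets were present. Notch3 was at 188, 180, 242, 262 and 221 CPM (mean 219 ± 35) and Notch2 at 125 CPM (112 to 141), while Notch1 was at 8.08 CPM. Hes1, a Notch target, was at 111 to 122 CPM, and Heyl was at 70.3 ± 18.4. The ligand Dll1 was at 80.6 CPM (64 to 106) and Jag1 at 16.5 CPM. Of the 26 listed genes of rest, 20 reached 10 CPM but only 5 reached 100 CPM, namely Gas1 (317 ± 39.3), Notch3, Spry1 (160 CPM, 127 to 193), Notch2 and Hes1.

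Most listed cell cycle genes were expressed. Of 70 listed genes in the table, 65 reached 10 CPM, and together they held 1.04%, 0.976%, 1.01%, 0.976% and 0.871% of the counts in replicates 1 to 5. In the G1 group, Cdk4 led at 591 ± 21.5 CPM, then Ccnd1, the cyclin that activates it, at 283, 446, 270, 246 and 456 CPM (mean 340 ± 102), highest in replicates 2 and 5. Ccnd1 was 10.8 times as abundant as Ccnd2 by mean level, and Ccnd3 was at 6.77 CPM. In the replication group, Rrm2, which makes deoxyribonucleotides, was the highest at 1196, 878, 1283, 1325 and 826 CPM (mean 1102 ± 234), followed by Dut (427 CPM, 373 to 497). The 6 subunits of the MCM helicase lay between 49.1 CPM (Mcm5) and 163 CPM (Mcm4) by mean.

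Mitotic genes were present at a median of 94.9 CPM over 32 genes. Cdk1, the kinase of mitotic entry, was at 615, 437, 564, 628 and 329 CPM (mean 515 ± 128), its binding protein Cks1b at 503 ± 52.2, the centromeric histone Cenpa at 444 (350 to 512), Top2a at 375 ± 45.3 and Mki67 at 292 ± 36.2 CPM. Replicate 5 was the lowest for each of Cdk1, Cks1b, Top2a and Mki67. It was the lowest library for 13 of the 23 mitotic genes of at least 50 CPM, against 977 of the 3442 tested genes at that level. Cyclin-dependent kinase inhibitors other than Cdkn1a were far lower: Cdkn1c at 109 ± 23.1, Cdkn2c at 80.4 (73.8 to 88.1), Cdkn1b at 56.6 ± 27.7, and Cdkn2a and Cdkn2b at 4.02 and 5.4 CPM. Cdkn1a exceeded Cdk1 in all 5 libraries, by 2.91 to 5.72 times. Trp53 itself was at 470 ± 58.3 CPM. Its target genes Ccng1 (381 ± 48), Mdm2 (301 ± 66.7), Btg2 (131 CPM, 84.7 to 168) and Zmat3 (119 CPM, 111 to 134) all exceeded 100 CPM by mean. Sesn1, another target, was low at 11.4 CPM, and Gadd45b was at 16.7 CPM. All 14 listed p53 genes reached 10 CPM.

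Many mitotic promoters carry a cell cycle element with the letters TTTGAA (the CHR) near a CCAAT box. In the RefSeq promoter windows on GRCm38.p6, which run from 250 bases before to 50 after a gene start, 27 of the 32 mitotic genes had an entry. TTTGAA was found on either strand in 19 of the 27 (70.4%), against 20.2% of the 27025 genes with a window and 14.1% of those that also had a mean of 10 CPM. CCAAT was found in 23 of 27 (85.2%), against 41.1% of all genes with a window. The levels of the 5 mitotic genes shown ran from Cdk1 at 515 CPM to Ccnb2 at 151 CPM, above the median of 94.9 CPM. The stretches around TTTGAA are given with these letters in capitals and 5′ to 3′ on the strand of the gene.
Cdk1 (chr10:69352966-69352995, minus strand): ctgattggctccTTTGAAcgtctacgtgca
Cks1b (chr3:89418291-89418320, minus strand): gcgggcggtgtgTTTGAAagcgaggccaaa
Top2a (chr11:99024351-99024380, minus strand): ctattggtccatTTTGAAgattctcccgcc
Mki67 (chr7:135716478-135716507, minus strand): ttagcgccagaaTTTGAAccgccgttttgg
Ccnb2 (chr9:70421704-70421733, minus strand): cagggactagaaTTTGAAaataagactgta
The element began 71 bases before the gene start in Cdk1, 17 in Cks1b, 179 in Top2a, 116 in Mki67 and 167 in Ccnb2. A match is a description of the letters, and the 3′ counts do not read the promoter.

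Genes of differentiation were at uneven levels. Of 58 listed genes in the table, 40 reached 10 CPM and 15 reached 100 CPM, and the list held 0.747% ± 0.0521 of the counts, lowest in replicate 1 (0.678%) and highest in replicate 4 (0.819%). Chrna1, the alpha subunit of the muscle acetylcholine receptor, was at 791, 836, 868, 803 and 976 CPM (mean 855 ± 74.1), which put it at rank 118. Its level was 11.2 times that of Chrnb1 by mean. Among the other subunits, Chrnd was at 42.4 CPM (33.9 to 54.7), and the fetal subunit Chrng at 41.2 ± 11.2 CPM whereas its adult replacement Chrne had 0 or 1 count in each library.

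Thin filament genes were led by Tpm3 (833 ± 57.3 CPM) and Tpm1 (826 CPM, 744 to 962), tropomyosins that non-muscle cells also use, then Acta2 (455 CPM, 356 to 572), the smooth muscle actin of early myogenic cells. The cardiac-type troponin Tnnt2 (206 ± 65.7) exceeded the fast skeletal Tnnt3 (62 CPM, 47 to 87.1). The skeletal and cardiac actins Acta1 (123 ± 35) and Actc1 (121 ± 25.7) were alike in mean level. The giant sarcomeric genes Ttn (868 ± 79.2) and Neb (181 ± 46.8) and the small heat shock gene Cryab (647 ± 126) led the thick filament and Z disc list. Embryonic myosin Myh3 was low, at 13.7, 9.44, 22.1, 24.1 and 23 CPM, and perinatal Myh8 was at 0.945 CPM.

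Of the fusion genes proper, Mymk, which encodes myomaker, was at 52.4 ± 13 CPM, above the median of 41.1 CPM of the 7969 expressed genes, and Mymx, which encodes myomixer, at 10.8 ± 5.51 CPM. The tetraspanins Cd81 (452 CPM, 417 to 506) and Cd9 (372 CPM, 312 to 399), which many cell types express, led that group. Adult fiber genes were near zero: Ckm had 1 to 3 counts per library, Myh1, Myh2, Myh4, Tcap and Pvalb had means of 0.185 to 1.17 CPM, and Myh7 and Myoz1 had no count, which allows up to 0.595 CPM over the 5 libraries. Eno3 (339 ± 20.5 CPM) and Actn3 (54.6 ± 12 CPM) were the 2 adult fiber genes of 11 in the table that reached 10 CPM.

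Myogenic factors bind E boxes, and CAGCTG is the form preferred by the MyoD family. It was found in the promoter window of 21 of 45 differentiation and fusion genes with an entry (46.7%), against 18.3% of all 27025 genes and 16.5% of those at a mean of 10 CPM. The highest and the lowest of these genes, both receptor subunits, and a myosin light chain gene are shown, with CAGCTG in capitals and 5′ to 3′ on the strand of the gene.
Chrna1 (chr2:73580413-73580442, minus strand): ctgtgggcagctCAGCTGtcatgcgggcac
Chrne (chr11:70619315-70619344, minus strand): cacaggatggggCAGCTGcctcccccaccc
Mylpf (chr7:127211545-127211574, plus strand): cttcctgggctcCAGCTGctgcaggcctcc
The genes with the letters ran from Chrna1 at 855 CPM to Chrne at 0.428 CPM.

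Immediate early genes, which cells transcribe within minutes of a stimulus, were abundant. The paper states that the characteristics of these cells change rapidly while they are sorted and just afterwards. How much of these counts arose during isolation was not tested. Of 22 listed, 21 reached 10 CPM and 16 reached 100 CPM, and the list held 0.845% ± 0.0987 of the counts. Klf6 was at 1298, 1536, 1208, 1197 and 1323 CPM and Jun, a subunit of the AP-1 factor, at 1279, 1039, 1257, 1309 and 1271 CPM. Fos, the partner of Jun, was at 924, 1010, 1061, 1032 and 1572 CPM (mean 1120 ± 258), highest in replicate 5. Jund (1080 ± 146), Fosb (637 ± 95.2), Egr1 (601 ± 136), Zfp36 (323 ± 88.4) and Junb (320 ± 119) followed, and Fosl1 had no count. Its share was 0.768%, 0.9%, 0.772%, 0.792% and 0.993% in replicates 1 to 5, highest in replicates 5 and 2. Of its 19 genes of at least 50 CPM, 9 were highest in replicate 5 and 8 in replicate 2, against 492 and 1156 of the 3442 tested genes at that level. The CArG box, the site of serum response factor, was found in 2 of the 18 promoter windows of this list (11.1%), against 1.81% of all windows. TGACGTCA, the CRE, was found in 1 of the 18 (5.56%), against 4.15% of windows of genes at a mean of 10 CPM. The genes with a CArG box were Zfp36 and Egr2, with the box in capitals.
Zfp36 (chr7:28379267-28379296, minus strand): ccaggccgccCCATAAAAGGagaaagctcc
Egr2 (chr10:67537484-67537513, plus strand): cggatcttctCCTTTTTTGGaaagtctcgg

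**Figure D3:**
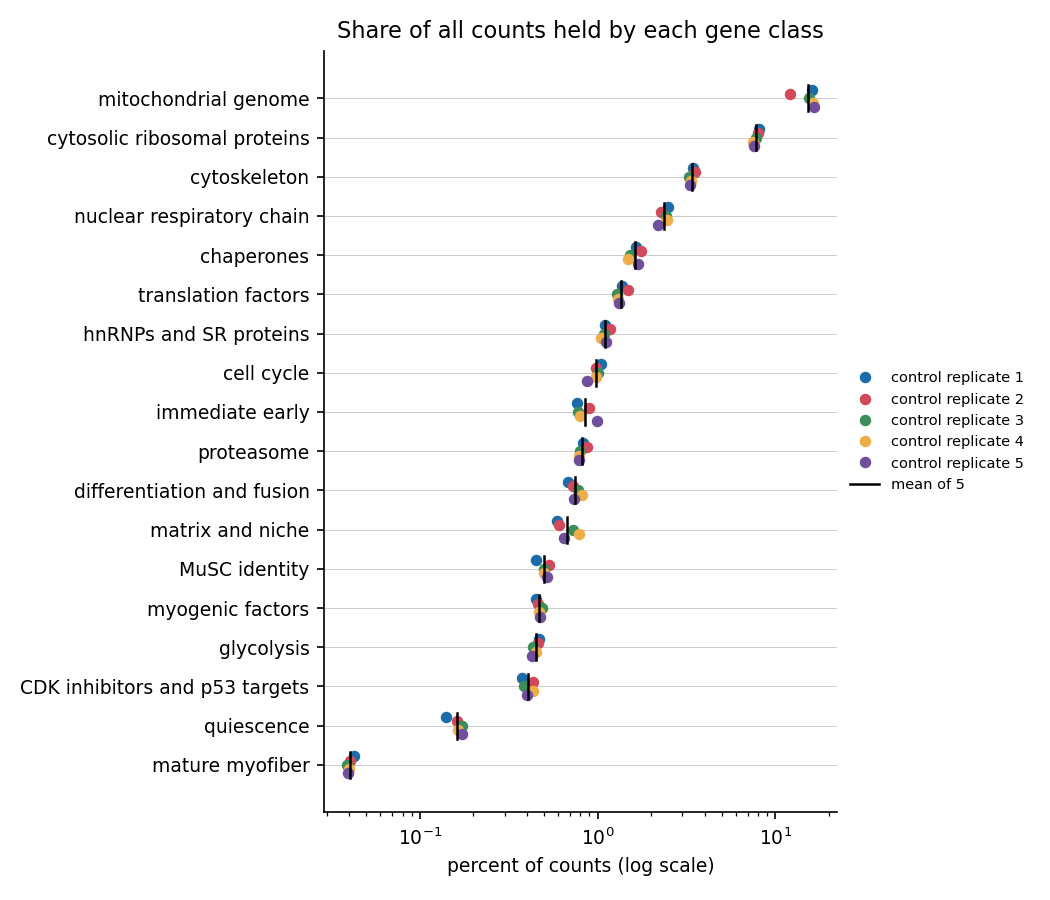
Percent of all counts (log scale) held by 18 gene classes in each control library, with the mean as a black bar. The mitochondrial genome (12.04% to 16.5%) and cytosolic ribosomal proteins (7.49% to 8.1%) lead, satellite cell identity, myogenic factor and differentiation lists lie between 0.448% and 0.819%, and the adult fiber list is lowest at 0.0392% to 0.0429%.

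Of the lists of nuclear genes, ribosomal proteins took the largest share. The 89 cytosolic ribosomal protein genes in the table held 8.1%, 7.96%, 7.78%, 7.49% and 7.6% of the counts, and 82 of them reached 10 CPM. Rpl5 was the highest nuclear-encoded ribosomal protein gene at 6227, 4458, 6733, 7100 and 4447 CPM (mean 5793 ± 1262), then Rpl23 (3877 ± 485), Rps20 (3479 ± 270) and Rpl4 (3141 ± 330). Subunits that the ribosome holds in equal number thus differed widely in counts, with Rpl24, for example, at 2.26 CPM. Of the 82 genes, 74 shared at least 1 stretch of 31 bases in the last 500 bases of their transcript with another annotated gene, and 50 shared 50% or more of that end. The same was true of Eef1a1, the elongation factor, whose end was shared over 58.1% and whose level was 364 ± 32.8 CPM, below Eif4g2 (2107 ± 177), Eef1b2 (1828 ± 128) and Eef2 (1194 ± 195). How the counting treated reads that match several genes was not tested, so low and high values of such genes are uncertain. Rpl5 was among the 50 genes that shared 50% or more of their end.

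The cytoskeleton list held 3.39% ± 0.111. Actb was the most abundant nuclear protein-coding gene and the steadiest of the 30 highest genes in CPM, at 10736, 10622, 10441, 10534 and 10656 (a CV of 1.07%, against 0.968% from counting alone, although on the TMM scale its counts were called more variable than counting error), whereas Actg1, the other cytoplasmic actin, was at 13.7, 83.9, 20.1, 12 and 18.6 CPM. Of the 41 genes of this list, 11 shared 50% or more of their transcript end with other annotated genes, among them Cfl1. Low and high values of such genes are uncertain. Actin regulators were high, with thymosin beta 4 (Tmsb4x, 2946 ± 161), profilin (Pfn1, 2361 ± 244) and cofilin (Cfl1, 2162 ± 200). So were vimentin (Vim, 2087 ± 269), the filament of mesenchymal and dividing myogenic cells, the lamin Lmna (1774 ± 279) and the tubulin Tubb5 (2150 ± 268).

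Of the 34 listed chaperones, 33 reached 10 CPM, led by Hsp90ab1 (3160 ± 479), the mitochondrial Hspe1 (1665 ± 247) and Hspa5 of the endoplasmic reticulum at 1423, 1529, 1245, 949 and 1744 CPM. The inducible heat shock genes Hspa1b and Hspa1a were low in 4 libraries, at 51.9 to 71.3 and 15.7 to 28.4 CPM, and higher in replicate 1, at 276 and 84.7 CPM. Glycolytic enzymes were led by Pkm (1074 ± 128), Gapdh (936 ± 180), Ldha (766 ± 34.1) and Aldoa (760 ± 50.4). Pkm and Gapdh did not keep 1 order, since Pkm was higher in 3 of the 5 libraries.

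Mitochondrial transcripts held 16.1%, 12.04%, 15.4%, 16.3% and 16.5% of the counts. The large ribosomal RNA mt-Rnr2 alone was at 76915, 66962, 72376, 72724 and 98945 CPM (mean 77584 ± 12453) and the small mt-Rnr1 at 16283 ± 2925, both highest in replicate 5. Of the protein genes, which encode subunits of complex I and cytochrome b among others, mt-Nd1 was at 20330, 11095, 19107, 20912 and 13638 CPM and mt-Cytb at 17553, 8795, 16776, 18387 and 10266 CPM, lowest in replicates 2 and 5. mt-Nd5 (7225 ± 1982) and mt-Nd6 (8714 ± 2282), whose ends lie opposite each other on the 2 strands, cannot be told apart without knowing the strand setting of the counting. The cytochrome oxidase genes were low for their class, with mt-Co1 at 1351 ± 152, mt-Co2 at 42.6 and mt-Co3 at 4.94 CPM. The end of mt-Co2 was shared over 100% with other annotated genes. Of the 84 nuclear genes of the respiratory chain, 78 reached 10 CPM and they held 2.37% ± 0.136, led by Atp5g3 (3835 ± 668) and Uqcrq (1128 ± 70). CT010467.1, an annotated ribosomal RNA on chromosome 17, was at 11748, 15838, 9731, 8438 and 22391 CPM, with replicates 2 and 5 highest.

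Among the most abundant genes outside the classes above, S100a6, a calcium-binding protein, was at 4105 ± 395 CPM, the galectin Lgals1 at 3417 ± 468, the tetraspanin Cd63 at 3114 ± 298 and the hyaluronan receptor Cd44 at 1815 ± 117. On the TMM scale, a scaling between libraries that differs from the total, the counts of Cd44 did not pass the test of spread described below. Gal, which encodes the neuropeptide galanin, was at 1957, 1687, 2317, 2302 and 1423 CPM (mean 1937 ± 389), rank 36. Matrix genes held 0.672% ± 0.0825, with Col1a2 at 1654, 1428, 1868, 1913 and 1469 CPM and Col3a1 at 896, 801, 1457, 1597 and 795 CPM, followed by Sparc (916 ± 106) and Thbs1 (725 CPM, 622 to 823). The 2 chains of type I collagen were far from equal, since Col1a2 exceeded Col1a1 (152 ± 38) by 7.85 to 15.9 times. Among ligands, Cxcl1 (201 ± 34.4) and Vegfa (106 ± 7.04) were the highest, and Hgf, Fgf2 and Igf2 had means below 1 CPM.

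Imprinted genes were split in level. The maternally expressed Grb10 (405 ± 35.7), H19 (385 ± 126) and Igf2r (263 CPM, 172 to 305) and the paternally expressed Peg3 (566 ± 62) were high, whereas Igf2, the neighbour of H19, had 0 or 1 count per library. Of 28 listed imprinted genes, 17 reached 10 CPM. H19 was at 400, 286, 430, 564 and 245 CPM. Malat1, the nuclear long noncoding RNA, was at 936, 1740, 1162, 967 and 1396 CPM, highest in replicate 2.

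Trpm7, the magnesium-permeable channel kinase that is intact in these mice, was at 61, 69.2, 84.4, 76.9 and 72.2 CPM (mean 72.8 ± 8.71, from 66 to 84 counts), rank 2515. Its closest relative Trpm6 had 0 to 2 counts per library. Of 16 listed magnesium channels and transporters, 10 reached 10 CPM, and only Mmgt1 (152 ± 41.7) and Magt1 (116 ± 17.4) exceeded Trpm7, in all 5 libraries. Mrs2, the mitochondrial magnesium channel, was at 17.8 ± 3.64 CPM. Of the mTOR pathway, which senses growth signals, 19 of 20 genes reached 10 CPM, led by Rps6 (488 ± 40.9) and Akt1 (394 ± 19.3), and Mtor itself was at 38.7 ± 7.46.

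Markers of other cells were examined, since a YFP gate after injury can let some through. The macrophage list summed to 1356, 1614, 1373, 1259 and 1642 CPM, with 12 of 24 genes at 10 CPM or more. Its leading genes were Spp1 (545 ± 61.6) and Lgals3 (375 ± 60.9), which myogenic cells can also express, and then Ctss (145 ± 28) and Lyz2 (120 ± 33.8). The complement genes C1qb and C1qc were at 45.4 ± 9.8 and 27.1 ± 12.8 CPM and the antigen presentation gene H2-Aa at 29.4 ± 14.2 CPM. The defining surface genes were below 10 CPM by mean but detected in every library, with Ptprc at 7.72, Csf1r at 9.28, Adgre1 at 4.59 and Itgam at 2.63 CPM. Fibroadipogenic markers summed to 600 ± 91.5 CPM, with 4 of 14 genes at 10 CPM or more. Gsn made up 487 of that sum, and Pdgfra (1.05 CPM) and Pi16 (no count) were at or near zero. The tenocyte factor Scx was at 112 ± 11.7 CPM with Tnmd, Kera and Fmod at 0. The smooth muscle and pericyte list summed to 194 to 304 CPM, of which Notch3 made up 219 by mean, with Myh11 at 3.02 and Pdgfrb at 1.57 CPM. The smooth muscle actin Acta2 (455 CPM) was counted with the thin filament genes and is not part of this sum. The adipocyte list summed to 10.05 to 73.2 CPM, mostly Fabp4 (40.3 CPM), with no count of Adipoq. Neutrophil, lymphocyte and Schwann cell lists summed to 0 to 6.49 CPM in any library. Replicate 5 stood apart for 2 lists: the erythroid sum was 168 CPM there against 1.82 to 24.1 in the others, and the endothelial sum 82 CPM against 9.04 to 33.4. The part of these cells in the other values was not tested.

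**Figure D4:**
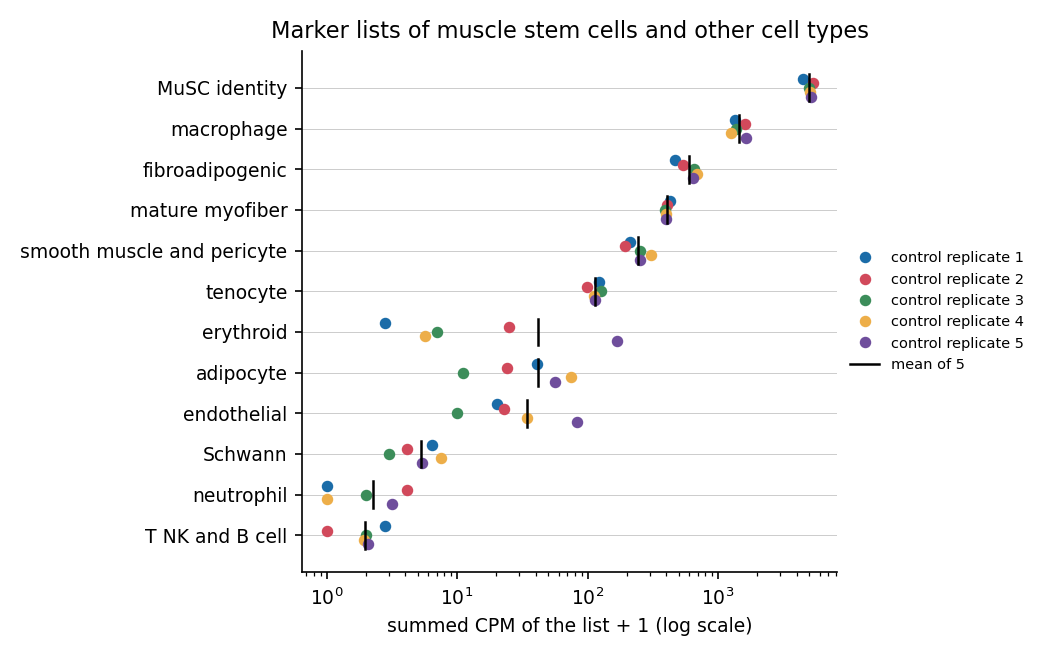
Summed CPM plus 1 (log scale) of marker lists for satellite cells and other cell types in each control library, with the mean as a black bar. The satellite cell identity list (4482 to 5325 CPM) lies above every other list drawn, and macrophage genes follow at 1259 to 1642 CPM. Of the mean sum of the identity list, 4998 CPM, adhesion and surface genes made up 3419 and transcription factors 574. Replicate 5 is the highest point for erythroid (168 CPM) and endothelial (82 CPM) genes.

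The median gene-wise biological coefficient of variation from edgeR was 10.4% at 10 to 50 CPM and 12.6% at 1000 CPM or more. These gene-wise values are drawn toward a value shared between genes. They therefore cannot show whether the spread left after counting error is similar at all depths. The common biological coefficient of variation, which expresses this spread for all genes at once, was 12.4% over 6864 genes tested with edgeR. The median of DESeq2 gene-wise dispersions, a different measure taken gene by gene, gave 6.44%. The edgeR value was 8.79% in replicates 1, 3 and 4 alone. Of the 6864 genes, 1197 (17.4%) had counts more variable than counting error alone at an adjusted p below 0.05 (an index of dispersion test). In replicates 1, 3 and 4 alone 290 genes were called, in a smaller test. The share called rose with depth, from 5.52% of genes at 10 to 50 CPM to 14.3% at 50 to 100 CPM, 36.7% at 100 to 500 CPM, 73.1% at 500 to 1000 CPM and 93.6% at 1000 CPM or more, so counts in lists of abundant genes are read beside those bins. The median coefficient of variation was 11.7% against 7.73% from counting alone at 100 to 500 CPM, and 12.8% against 2.52% at 1000 CPM or more.

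**Figure D5:**
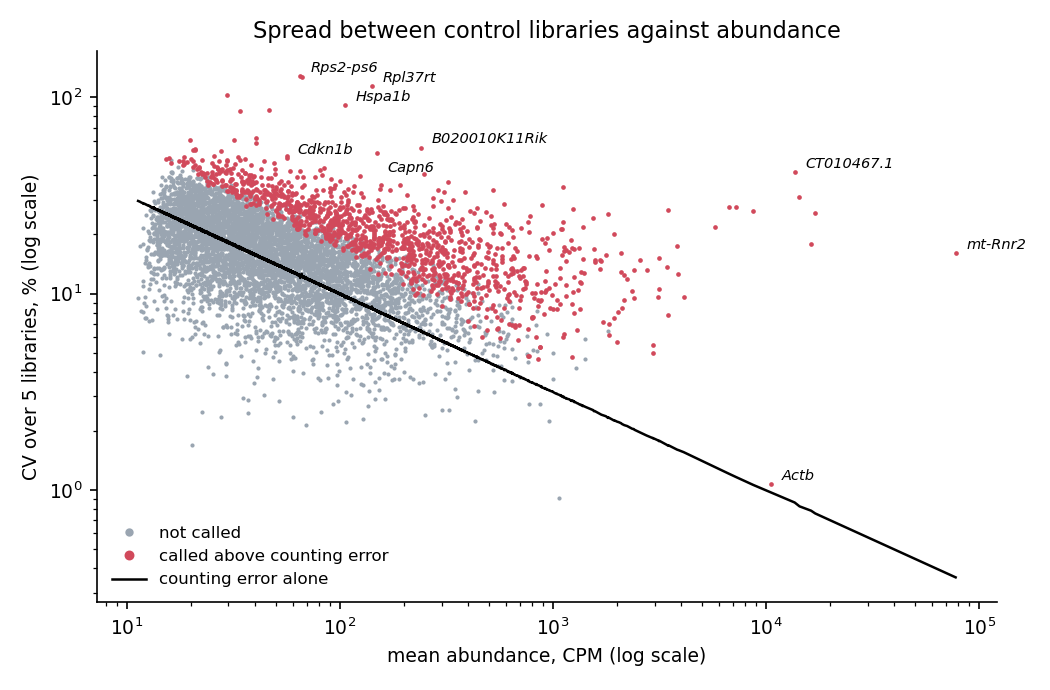
Coefficient of variation over the 5 control libraries (%, log scale) against mean CPM (log scale) for the 6864 genes tested, with the 1197 called genes in red and counting error alone as a black line. Called genes fill the right of the plot, where 88 of the 94 genes at 1000 CPM or more are called, and Rps2-ps6, Rpl37rt and Hspa1b are among the highest points.

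By gene class, 4 of the 5 markers were called, with Myog the exception. Cdkn1a lies in the bin with 93.6% called, Myod1 in that with 73.1%, and Myog, Pax7 and Myf5 in that with 36.7%. Of the immediate early genes 15 of 21 tested were called, of the mitochondrial genome 10 of 12, and of the cytosolic ribosomal proteins 52 of 80, at medians of 195, 6954 and 691 CPM. The ribosomal protein share of 65% lies below the 73.1% of all genes at 500 to 1000 CPM. The cell cycle list had 17 of 63 called, 12 of them among the 30 mitotic genes, and the mitochondrial ribosomal proteins 6 of 71, at medians of 90.2 and 46.9 CPM. The mitotic share of 40%, at a median of 108 CPM, lies near the 36.7% of all genes at 100 to 500 CPM. The median gene-wise biological coefficient of variation was 13.1% for immediate early genes, 18.9% for the mitochondrial genome and 10.7% for mitochondrial ribosomal proteins, against 11.2% over all genes tested. All 5 tested genes of the thick filament and Z disc list were called. Their means ran from 44.0 CPM (Myl1) to 868 CPM (Ttn), across bins with 5.52% to 73.1% called. Other small lists were also called in full, among them the maternally expressed imprinted genes (5 of 5) and the mitochondrial chaperones (3 of 3). Their medians were 263 and 438 CPM, in the bin where 36.7% of all genes were called. None of the 4 growth factor receptor genes of satellite cells, at a median of 134 CPM, was called, against 36.7% of all genes at 100 to 500 CPM.

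The 15 most variable genes of at least 50 CPM were all called, and 5 of them are annotated pseudogenes. Rps2-ps6 was at 211 CPM in replicate 1 and 10.9 to 56.3 in the others, Gm12504 at 217 in replicate 5 and 21.3 to 37.8 in the others, and Rpl37rt at 425 in replicate 5 and 40.8 to 116 in the others. Gm12366 ran from 112 to 383 CPM. The transcript ends of Rps2-ps6 and Gm12366 were shared over 99.6% and 93.8% with other genes, and those of Gm12504 and Rpl37rt over 28.7% and 49.4%. Gm13339, with 26.8% shared, ran from 37.2 to 113 CPM, and CT010467.1, with 91.9% shared, from 8438 to 22391 CPM.

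Of the other variable genes, B020010K11Rik was at 21 CPM in replicate 1 and 250 to 381 in the other 4. Hspa1b was high in replicate 1 alone, as given above. Capn6, a calpain family member, was at 113, 89.1, 192, 265 and 87.5 CPM, the imprinted Meg3, whose end is shared over 84.5%, at 21.9, 92.3, 42.2, 48.2 and 76.6 CPM, and the inhibitor Cdkn1b at 39.2, 73.4, 29.1, 96.4 and 44.8 CPM. Mylpf, a fast myosin light chain, ran from 52.4 to 135 CPM, Mgp, the matrix Gla protein, from 42.8 to 128, Zfp386 from 58 to 172 and Otud1 from 93.3 to 233. Replicate 4 held the highest value of Capn6, Cdkn1b, Mylpf, Mgp and Otud1.

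The 10 least variable genes by the same measure, Mex3c, Phactr4, Knstrn, Cdipt, Serpinf1, Mfsd1, Cnpy2, Map2k4, Wdr18 and Prkar2a, all lay between 50.4 and 62.4 CPM by mean. Their coefficients of variation over the libraries, 2.85% to 8.56%, were below the 12.6% to 14.0% that counting alone gives on average at this depth.

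Single libraries also departed for other genes. Relative to the mean of the other 4 on the log2(CPM + 1) scale, the genes farthest above were Rps2-ps6 (3.12), Gm10282 (2.55) and Hspa1b (2.13) in replicate 1, and B020010K11Rik (1.42), Srf and Meg3 (1.08) in replicate 2. In replicate 3 they were Tpt1-ps3 (1.39), the metallothionein Mt1 (0.87) and Cab39l (0.81), in replicate 4 Gm10925 (2.86), Tpt1-ps3 (2.14) and Capn6 (1.21), and in replicate 5 Gm12504 (2.91), Rpl37rt (2.70) and CT010467.1 (1.01). Those farthest below were B020010K11Rik (-3.73), Meg3 (-1.45) and Gm12366 (-1.28) in replicate 1, and Gm10925 (-3.04), Tpt1-ps3 (-2.43) and Rps2-ps6 (-1.58) in replicate 2. Rpl37rt (-1.13), Cdkn1b and Igsf3 (-0.93) were lowest in replicate 3, Rpl37rt (-1.49), Gm12504 (-1.20) and Snhg6 (-0.95) in replicate 4, and Gm10282 (-3.73), Tpt1-ps3 (-2.58) and Rps2-ps6 (-2.07) in replicate 5. Pseudogenes recur at both extremes. Srf, the serum response factor, stood out at 147 CPM in replicate 2 against 57.5 to 89.7, and Mt1 at 811 CPM in replicate 3 against 349 to 541.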

How the data were processed

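Each library was made from sorted cells lysed directly and converted with the CEL-Seq2 protocol, which reads transcript 3′ ends and tags each molecule with a UMI. The authors processed reads with UMI-tools 1.1.4, Trim Galore 0.6.10, HISAT2 2.2.1 on GRCm38 and featureCounts 2.0.6, per the submitters' processing notes, and deposited raw counts per gene, not normalized. The annotation release and strand setting are not given in the sources used here. The deposited table holds 24620 entries. For 12 repeated symbols the entry with the larger control total was kept.

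From these counts CPM per library total, ranks and class shares were computed (Python 3.11.15, pandas 2.3.3). No pseudocount was used except 1 CPM for log2 values. A count of 0 allows up to 3 counts, or 2.73 to 3.28 CPM in a library, and this limit and all ranges of counts cover counting error only. Spread was fitted in edgeR 4.0.16 (R 4.3.3) with TMM factors, filterByExpr and an intercept only, on the 5 control libraries. The index of dispersion of each gene was compared with Poisson means scaled to the TMM library size, with 4 degrees of freedom and Benjamini-Hochberg adjustment over 6864 genes, and called below 0.05. The test was tried on counts simulated with counting error only for these 6864 genes, with changed genes drawn from those of at least 50 CPM. It called 48 of 50 genes changed by 2 times in 1 library, and 32 of 50 changed by 1.5 times. Its power for genes below 50 CPM was not tested. Groups were taken from the labels, and the libraries of the other genotype entered no step.

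Genes were named by rule: the 5 markers, the 30 highest, the leading members of each list, the 15 most and 10 least variable of at least 50 CPM, Trpm7, and the 3 genes farthest above and below in each library. Gal, Cd44 and the members of lists matched by name pattern (ribosomal, respiratory chain and translation genes) were chosen after their values were seen. Members and lists were chosen with earlier results of these data known. Genes of a list that the table lacks were not analysed here. Of 24608 symbols, 23986 were found in GENCODE M21 (GRCm38), from which coordinates, biotypes and transcript ends were taken. Overlap of transcript ends was searched as matches of 31 bases within the last 500 bases. DESeq2 1.42.0 served as an alternative. Alternatives are given in the closing section.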

Additional observations from a re-analysis of the deposited data

Results flagged for a closer look

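Of 206 values examined (named genes, class shares and library measures), 15 had a library whose gap to the nearest other took up more of the range than the 95% critical value for 5 values. Chance flags about 1 in 20 groups of independent values, but these include genes named for an extreme library and lists that share genes, so the number flagged cannot be read against that rate. Replicate 5 accounted for 9 of them, replicates 1 and 2 for 3 each, and replicates 3 and 4 for none.

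In replicate 5 the high values were Fos at 1572 CPM (924 to 1061 in the other 4), mt-Rnr1 at 21335 CPM (14083 to 15944), Rpl37rt at 425 CPM (40.8 to 116) and Gm12504 at 217 CPM (21.3 to 37.8). The hemoglobin genes Hba-a1 (66.7 CPM), Hba-a2 (45.9 CPM) and Hbb-bs (44.8 CPM) were at 0 to 8.39 CPM in the other libraries, and the erythroid list held 0.0168% of the counts there against 0.000182% to 0.00241%. The mTOR pathway share was lowest there at 0.196% (0.215% to 0.223%).

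In replicate 1, Hspa1b at 276 CPM (51.9 to 71.3), Rps2-ps6 at 211 CPM (10.9 to 56.3) and the histone variant gene H3f3b at 991 CPM (936 to 949) were high. In replicate 2, the mitochondrial genome share was low at 12.04% (15.4% to 16.5%), Jun was low at 1039 CPM (1257 to 1309), and Cdipt was high at 57.7 CPM (47.0 to 50.1). On the TMM scale H3f3b and Cdipt did not pass the test for spread beyond counting error.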

How the results depend on the processing

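No paired analysis was possible because no comparison between genotypes is made. Leaving out 1 control library at a time gave 7900 to 8006 genes with a mean of 10 CPM, 32.8% to 33.8% of counts in the 100 most abundant genes, a common biological coefficient of variation of 11.8% to 13.2%, and 834 to 1145 genes more variable than counting error. With replicates 1, 3 and 4 only, an alternative added after the data were seen, the last 2 values were 8.79% and 290 genes. A filter of at least 10 CPM in every library gave 6927 genes in place of 7969. The median of DESeq2 gene-wise dispersions, a different measure from the common value, gave a coefficient of 6.44%. Removing mitochondrially encoded genes lowered the share of the 100 most abundant genes to 22.1%, as the total shrinks, and raised class shares by a median factor of 1.18. The share was then 0.407% for the markers, 0.882% for differentiation and fusion, 1.15% for the cell cycle, 0.997% for immediate early genes and 9.19% for ribosomal proteins. Pax7 stood at 231, Myod1 at 830, Myog at 566, Myf5 at 148 and Cdkn1a at 2296 CPM. Of 263 other class shares under these alternatives, 26 moved by 1 SD or more, all with mitochondrial genes removed. Thinning to the smallest total, TMM, DESeq2 size factors, total counts and other filters moved the main values by less than the limits set. Depth limits values under about 10 CPM most.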
